A study of Mus musculus with 6 samples.

Results

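Cathepsins are the proteases of the lysosome, the acidic compartment in which a cell breaks down material it has taken up or no longer needs. Most are made as inactive precursors, sorted to the lysosome by mannose 6-phosphate tags, and activated there by cleavage; some are also secreted and cut matrix outside the cell. Macrophages and the multinucleated cells that form from them hold large amounts, and muscle fibres hold less. The 10 genes described here are Ctsa, Ctsb, Ctsc, Ctsd, Ctsf, Ctsh, Ctsk, Ctsl, Ctss and Ctsz. They were chosen by name as the lines of the deposited gene count table with these symbols, each of which stood on 1 line, out of 52110 lines with a symbol. Of the 10 products, 8 are cysteine proteases of the papain type (B, C, F, H, K, L, S and Z), cathepsin D is an aspartic protease and cathepsin A is a serine carboxypeptidase.

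RNA from muscle of c57b6l mice of WT genotype was sequenced in 6 libraries. The agent label is click for 3 mice and EDC for the other 3, as the series design states. The labels do not say what either agent is, which muscle was taken, at what time, or the age of the mice, and neither group is labelled as untreated, so every difference below is click relative to EDC. The question is which cathepsin genes differed between the muscles of mice given one agent and those given the other.

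Each library held 34472421 to 39305779 reads in genes. Muscle fibre markers defined the tissue: all 8 were read in every library, with summed levels of 127733 to 186519 CPM in click and 85696 to 145288 CPM in EDC. CPM is edgeR's count scaled to library size, with TMM factors applied to the library sizes. Click replicate 2 stood apart, at one end of the first principal component of all genes (47.9% of the variance), and EDC replicate 3 stood at the other. Replicate 1 of each group carried Xist reads and no reads of the Y-linked Ddx3y, and the other 4 libraries the reverse. The ratio of mt-Atp6 reads to those of the predicted gene Gm10925 put click replicate 2 with EDC replicates 1 and 3 (0.927 to 0.937), and click replicates 1 and 3 with EDC replicate 2 (0.162 to 0.166). That grouping is called the mt-Atp6 read class, and no label explains it.

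All 10 cathepsin genes lay lower in click muscle, where 48.7% of all genes did, with a median log2 fold change of -1.52, beside a median of 0.02 over the 15797 genes tested. The median was -1.25 without click replicate 2 and -0.99 without EDC replicate 3. Together they had 2834, 987 and 2202 CPM in click replicates 1 to 3, against 4271, 4677 and 9439 CPM in EDC replicates 1 to 3. The summed level of every click library lay below that of every EDC library. As a share of all reads in named genes, the family took 0.199%, 0.0760% and 0.241% in click, against 0.517%, 0.491% and 1.25% in EDC. Because these are bulk tissue samples, fewer cells rich in a transcript and less of it per cell cannot be told apart.

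None of the 10 passed the edgeR quasi-likelihood test at an adjusted p under 0.05 over all genes, where 0.00633% of genes passed. The adjusted p of the members lay between 0.298 and 0.408. At an unadjusted edgeR p under 0.05, 6 of the 10 were lower (Ctsa, Ctsb, Ctsc, Ctsd, Ctsh and Ctsz), against 8% of all genes in that direction and 7.22% in the other. In 8 of the 10 every click library lay below every EDC library, which held for 12.4% of all genes (the reverse held for 9.84%), and 8 had a log2 fold change of -1 or less, which held for 10.2%. The DESeq2 Wald test called 5 as lower (Ctsa, Ctsb, Ctsd, Ctsh and Ctsz; DESeq2 adjusted p = 0.0212 to 0.0433), against 2.28% of all genes called lower and 1.57% called higher. Limma-voom called 0 of the 10 after adjustment, with 7 at an unadjusted p under 0.05 where 9.07% of all genes were lower at that level. For a single gene, the exact permutation test over 3 against 3 libraries cannot give a p below 0.1.

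**Figure D1:**
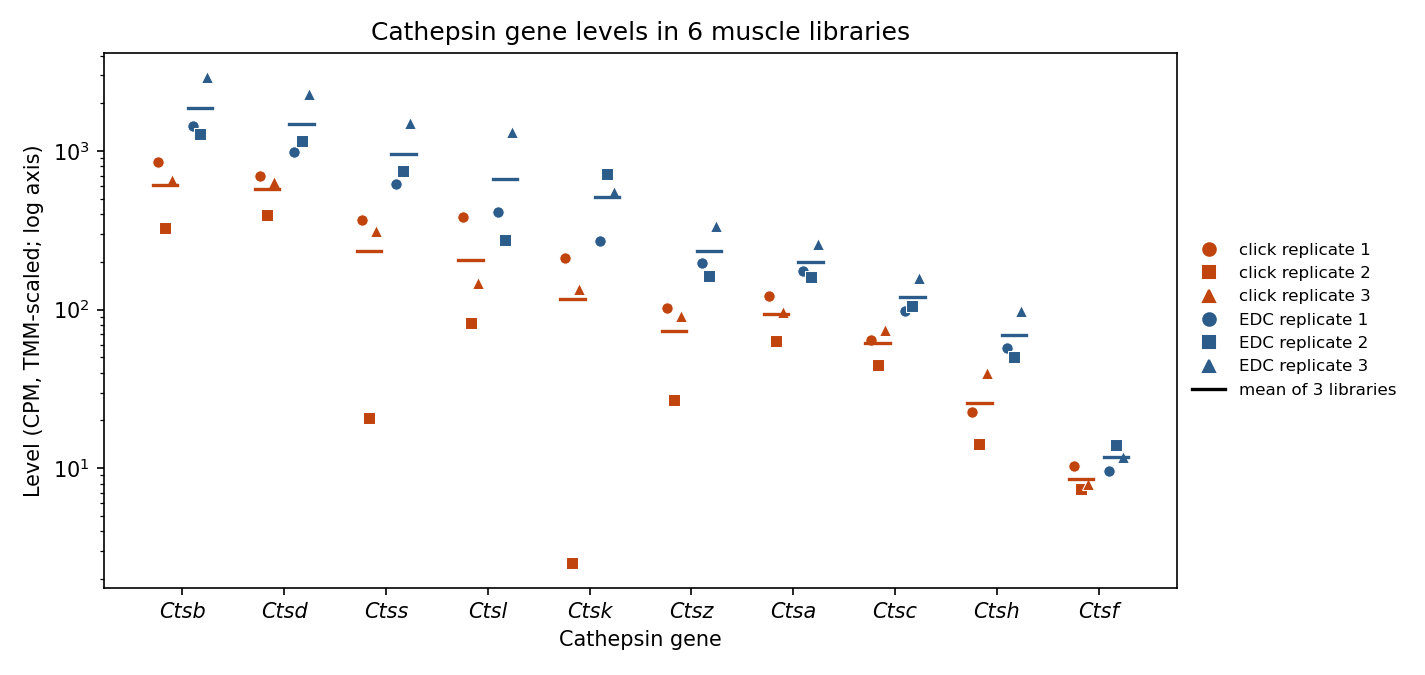
Level of each cathepsin gene in the 6 libraries, in TMM-scaled CPM on a log axis, with click left of EDC for each gene, a symbol for each library and a bar at the mean of 3. Click replicate 2 is the lowest library for all 10 genes, and Ctsk stands at 2.51 CPM there.

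The order of the libraries was much the same from gene to gene. Click replicate 2 was the lowest of the 6 for 10 of 10 genes. EDC replicate 3 was the highest for 8, and EDC replicate 2 was the highest for the other 2, Ctsk and Ctsf. Ctsl and Ctsf were the genes whose groups overlapped, each because click replicate 1 lay above 1 EDC library. Within the mt-Atp6 read class that holds click replicate 2 and EDC replicates 1 and 3, click lay below EDC for 10 of 10 genes. That had to be so, because its only click library is click replicate 2, the lowest of the 6 for every gene. Within the class of click replicates 1 and 3 and EDC replicate 2, click lay below EDC for 9, with Ctsl as the exception. The share of all genes with the same order in each class was not computed.

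Cathepsin B is a broad lysosomal protease that can cut within a chain and remove dipeptides from its end. Ctsb had 851, 328 and 655 CPM in click replicates 1 to 3, against 1430.3, 1288 and 2922 CPM in EDC replicates 1 to 3. Even the lowest EDC library was above the highest click library. Its mean was 611 ± 264 CPM over the click libraries and 1880.3 ± 905 CPM over the EDC libraries (SD, n = 3 each), which gave -1.62 as log2 fold change (SE 0.47; adjusted p = 0.298 by edgeR). Ctsb (ENSMUSG00000021939.8) spans chr14:63122462-63145923 in mm10, plus strand, with 10 exons in its principal transcript.

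Cathepsin L is the other broad endopeptidase, and in mice it also processes the invariant chain in the thymus. Ctsl had 386, 82.4 and 148 CPM in click, against 414, 273 and 1317 CPM in EDC. The groups overlapped, and the EDC mean rested largely on replicate 3. The log2 fold change was -1.70 (SE 0.76, edgeR adjusted p = 0.339) with all libraries, -0.75 without EDC replicate 3 and -2.57 without click replicate 1. Ctsl (ENSMUSG00000021477.9) spans chr13:64359337-64370890, minus strand.

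Cathepsin S cuts the invariant chain of MHC class II molecules in antigen-presenting cells and stays active at neutral pH. Cathepsin K cleaves collagen and elastin and is the main collagen-degrading protease of osteoclasts. Their genes are neighbours on chromosome 3, on the plus strand, with 17423 bases between them. Ctsk (ENSMUSG00000028111.4) spans chr3:95499256-95509362 and Ctss (ENSMUSG00000038642.10) chr3:95526786-95556403. The stretches around their start sites are shown because these 2 genes had the largest fitted differences and were furthest below the other click libraries in click replicate 2. Each runs from 250 bases before to 50 after the RefSeq start, on the strand of the gene (GRCm38.p6, chr3:95498960-95499259 for Ctsk and chr3:95526536-95526835 for Ctss). Capitals mark matches to the motifs searched, on either strand.
Ctsk: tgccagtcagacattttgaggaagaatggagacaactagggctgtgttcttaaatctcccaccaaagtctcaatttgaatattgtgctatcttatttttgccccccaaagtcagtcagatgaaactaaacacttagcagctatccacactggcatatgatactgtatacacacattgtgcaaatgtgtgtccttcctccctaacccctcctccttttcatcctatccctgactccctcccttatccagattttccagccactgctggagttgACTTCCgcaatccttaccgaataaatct
Ctss: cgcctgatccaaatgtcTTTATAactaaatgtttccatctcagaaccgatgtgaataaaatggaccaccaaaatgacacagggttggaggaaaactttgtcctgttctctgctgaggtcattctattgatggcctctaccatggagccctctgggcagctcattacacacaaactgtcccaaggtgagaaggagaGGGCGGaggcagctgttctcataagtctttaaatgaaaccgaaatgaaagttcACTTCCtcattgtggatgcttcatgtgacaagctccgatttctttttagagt

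Ctss had 369, 20.7 and 312 CPM in click, against 623, 753 and 1501 CPM in EDC. Ctsk had 211, 2.51 and 135 CPM in click, against 271, 716 and 549 CPM in EDC. For both genes every click library lay below every EDC library, with click replicate 2 far under the other click libraries. In reads, Ctsk numbered 69 in click replicate 2 and 5821 and 5345 in click replicates 1 and 3. The log2 fold changes were -2.04 for Ctss (SE 0.92, edgeR adjusted p = 0.341) and -2.14 for Ctsk (SE 1.200, edgeR adjusted p = 0.408). The 95% intervals reached from -4.22 to 0.15 for Ctss and from -4.98 to 0.70 for Ctsk. Without click replicate 2 the changes were smaller and less variable, at -1.54 (SE 0.46) for Ctss and -1.60 (SE 0.47) for Ctsk. Without click replicate 1 they were larger, at -2.57 for Ctss and -2.92 for Ctsk. With the mt-Atp6 read class as a covariate they were -3.41 and -4.63. Across the 6 libraries, the ratio of Ctsk to Ctss reads was 0.572, 0.122 and 0.434 in click, against 0.434, 0.952 and 0.366 in EDC. The ratio was thus lowest in click replicate 2 and highest in EDC replicate 2, and the groups overlapped.

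Cathepsin F is a papain-type protease that can also process the invariant chain, in macrophages. Ctsf (ENSMUSG00000083282.3; chr19:4855130-4860918, plus strand) had 10.3, 7.36 and 7.95 CPM in click, against 9.55, 14.0 and 11.8 CPM in EDC. The groups overlapped, with click replicate 1 above EDC replicate 1. At -0.47 (SE 0.24; adjusted p = 0.376 by edgeR) its log2 fold change was the smallest of the 10, with a 95% interval from -1.03 to 0.09. Its start site is shown as that of the gene that differed least (GRCm38.p6, chr19:4854915-4855214, plus strand).
Ctsf: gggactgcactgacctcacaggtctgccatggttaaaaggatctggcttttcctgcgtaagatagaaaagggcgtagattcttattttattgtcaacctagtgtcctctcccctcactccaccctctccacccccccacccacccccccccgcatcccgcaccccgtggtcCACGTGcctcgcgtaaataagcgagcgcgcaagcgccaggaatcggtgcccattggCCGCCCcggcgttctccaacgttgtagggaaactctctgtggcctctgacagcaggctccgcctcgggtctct

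Cathepsins C, H and Z act at the ends of chains. Cathepsin C, also called dipeptidyl peptidase I, activates the serine proteases of neutrophil, mast cell and lymphocyte granules. Ctsc had 64.8, 44.6 and 74.7 CPM in click, against 98.4, 104.9 and 159 CPM in EDC. Its libraries did not overlap between the groups, and its log2 fold change of -0.98 had a small error (SE 0.28, edgeR adjusted p = 0.298). Cathepsin H is an aminopeptidase. Ctsh had 22.7, 14.3 and 40.0 CPM in click, against 57.7, 50.4 and 98.5 CPM in EDC, with no overlap; the fitted change was -1.42 in log2 (SE 0.43, adjusted p = 0.298 by edgeR). Cathepsin Z, also called cathepsin X, is a carboxypeptidase found mainly in cells of the monocyte and macrophage lineage. Ctsz had 102, 26.9 and 90.8 CPM in click, against 197, 163 and 339 CPM in EDC, again with no overlap (log2 fold change -1.67, SE 0.53, edgeR adjusted p = 0.298). In mm10, Ctsc (ENSMUSG00000030560.17) spans chr7:88278085-88310888 and Ctsh (ENSMUSG00000032359.14) spans chr9:90054152-90076089, both on the plus strand, and Ctsz (ENSMUSG00000016256.10) spans chr2:174427493-174439039, minus strand.

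Cathepsin D, the aspartic protease, is among the most abundant lysosomal proteases of most cells. Ctsd had 696, 396 and 643 CPM in click, against 993, 1154 and 2282 CPM in EDC. The groups did not overlap, and the log2 fold change was -1.35 (SE 0.40, edgeR adjusted p = 0.298), between -1.57 without EDC replicate 1 and -0.90 without EDC replicate 3 when single libraries were left out. Ctsd (ENSMUSG00000007891.16) spans chr7:142375911-142388038, minus strand. The hexamer CACGTG stands at 2 positions in the stretch around its start site, as it does in a stretch of Ctsa that is not shown. That of Ctsd is given here (GRCm38.p6, chr7:142387778-142388077, minus strand).
Ctsd: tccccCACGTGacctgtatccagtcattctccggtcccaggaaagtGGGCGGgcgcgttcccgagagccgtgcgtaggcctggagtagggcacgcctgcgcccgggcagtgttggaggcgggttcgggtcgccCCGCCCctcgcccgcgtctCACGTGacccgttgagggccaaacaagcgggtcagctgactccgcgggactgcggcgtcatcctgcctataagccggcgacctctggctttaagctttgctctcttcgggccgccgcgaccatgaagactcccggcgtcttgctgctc

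Cathepsin A removes residues from the carboxyl end of proteins and protects beta-galactosidase and neuraminidase 1 within a complex. Ctsa (ENSMUSG00000017760.16; chr2:164832873-164841032, plus strand) had 123, 63.7 and 96.4 CPM in click, against 176.5, 160.4 and 260.1 CPM in EDC. No click library reached an EDC library, and the log2 fold change was -1.08 (SE 0.31, edgeR adjusted p = 0.298). The counting program's use of strand is not given in the sources used here, and 1515 exonic bases of Ctsa are overlapped by Pltp on the opposite strand. Pltp, a phospholipid transfer protein gene, had a log2 fold change of -2.03, with 172 to 1089 reads in click, against 1760 to 6320 reads in EDC. Neurl2, also on the opposite strand, covers 324 exonic bases of Ctsa and had a log2 fold change of 0.15. Fdft1, on the opposite strand of Ctsb, covers 774 of its exonic bases and lay the other way from Ctsb, at 0.72. On the same strand, 1498 exonic bases of Ctsd lie within the annotated gene Gm49369. For Ctsl, 1971 exonic bases lie within Gm47123 on the opposite strand and 395 within the same-strand pseudogene Gm49230. For Ctsc, 397 lie within Gm26522 on the opposite strand. None of these Gm genes is analysed here. Overlaps were counted over the whole span of the other gene, introns included.

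**Figure D2:**
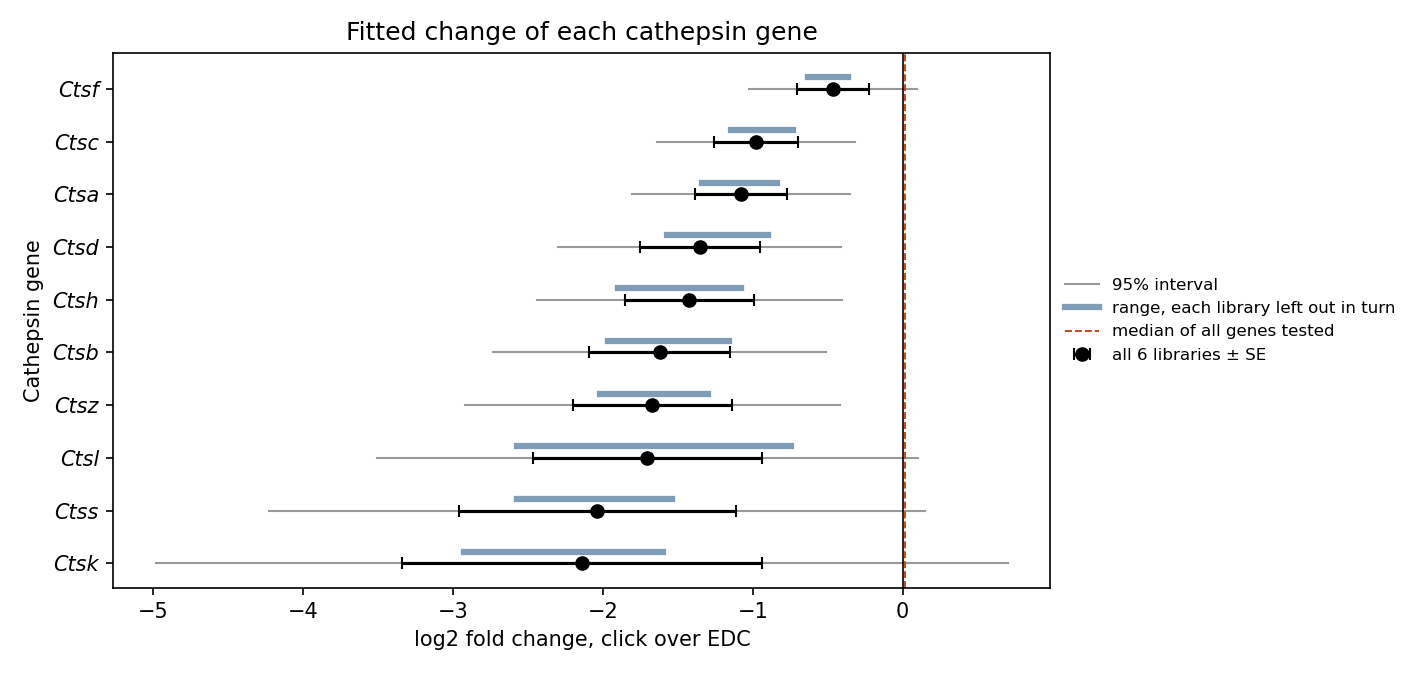
Fitted log2 fold change of each cathepsin gene, click over EDC, with its SE, its 95% interval and the range of values when each of the 6 libraries was left out in turn; the dashed line is the median of all genes tested. All points and all leave-one-out ranges lie below 0, and the intervals of Ctsf, Ctsl, Ctss and Ctsk include 0.

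The start-site windows of 8 of the 10 genes were found in the RefSeq table, as 9 windows of 300 bases. The motifs searched on both strands were CACGTG (the E-box core), the longer palindromic CLEAR element that contains it and is bound by TFEB, GGAAGT (a core bound by ETS factors), TGANTCA (AP-1), GGGCGG (GC box) and TATAAA (the core promoter box of that spelling). CACGTG was present in windows of Ctsa, Ctsd, Ctsf and Ctsl, against 7.15% of all 32851 windows. The CLEAR element was searched only as an exact palindrome, which was found in 0 of the 9, against 0.326% of all. Near matches to that palindrome were not searched, so the search cannot show that these windows lack CLEAR sites of another spelling. GGAAGT was present for Ctsa, Ctsc, Ctsk and Ctss (23.8% of all windows), GGGCGG for Ctsc, Ctsd, Ctsf, Ctss and Ctsz (35.7%) and TATAAA for Ctss (13.6%). The TATAAA match of Ctss began at position -233 from the start site and lay on the opposite strand. TGANTCA was found in 0 of the 9, against 7.81% of all windows. The Ctsk and Ctss windows, which lack CACGTG, had 43.7% and 44% G and C, and that of Ctsd had 67.3%. Such matches describe the letters only.

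Levels can be set beside each other between genes only per transcript length, in RPKM, using the principal transcript of the GENCODE M21 annotation. On that scale Ctsd led in all 3 click libraries and in EDC replicate 1, and Ctss led in EDC replicates 2 and 3. Ctsd averaged 272 ± 75.3 RPKM in click and 694 ± 330.1 RPKM in EDC, and Ctss 172 ± 138 RPKM in click and 708 ± 349.5 RPKM in EDC (SD, n = 3 each). The spreads of Ctsd and Ctss overlapped in both groups. Both genes were read in the same libraries, and Ctsd was above Ctss in all 3 click libraries, while the order was mixed in EDC. That order was not tested. Ctsb followed with 129 ± 55.6 RPKM in click and 396 ± 191 RPKM in EDC, then Ctsk with 76.9 ± 69.7 RPKM in click and 339 ± 149 RPKM in EDC. Ctsf was the lowest by mean, at 4.31 ± 0.78 RPKM in click and 5.95 ± 1.12 RPKM in EDC. In click replicate 2 alone Ctsk was lower still, at 1.66 RPKM. Ctsl was taken at 6168 bases, so its level per length depends on the use of that long transcript.

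The make-up of the family differed in click replicate 2. Ctsd took 28.9%, 52.9% and 32.4% of the family's summed RPKM in click, against 26.8%, 25.5% and 28.2% in EDC. The Ctss share was 24.1%, 4.33% and 24.7% in click, against 26.4%, 26.1% and 29.1% in EDC. Ctsd thus held a larger share and Ctss a smaller one in every click library, but most of the difference came from replicate 2: without it the click mean of the Ctsd share was 30.7%, against 38.1% with it. The Ctsk share was 12.3%, 0.47% and 9.60% in click, against 10.3%, 22.3% and 9.52% in EDC, and overlapped. Shares of Ctsa, Ctsc, Ctsd and Ctsf were higher in every click library than in every EDC library, that of Ctss was lower in every one, and the other 5 overlapped. Some gaps were narrow. The Ctsc share was 2.30% in click replicate 1 and 2.27% in EDC replicate 1. That of Ctsa was 2.84% in click replicate 3 and 2.78% in EDC replicate 1. Shares of a library add up to a fixed whole, so a fall in 1 gene raises the others and these results are not separate. For each of these 5 separated shares the exact two-sided permutation p was 0.1, the smallest that the design allows, and 0.2 after Benjamini-Hochberg adjustment over the 10 genes.

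**Figure D3:**
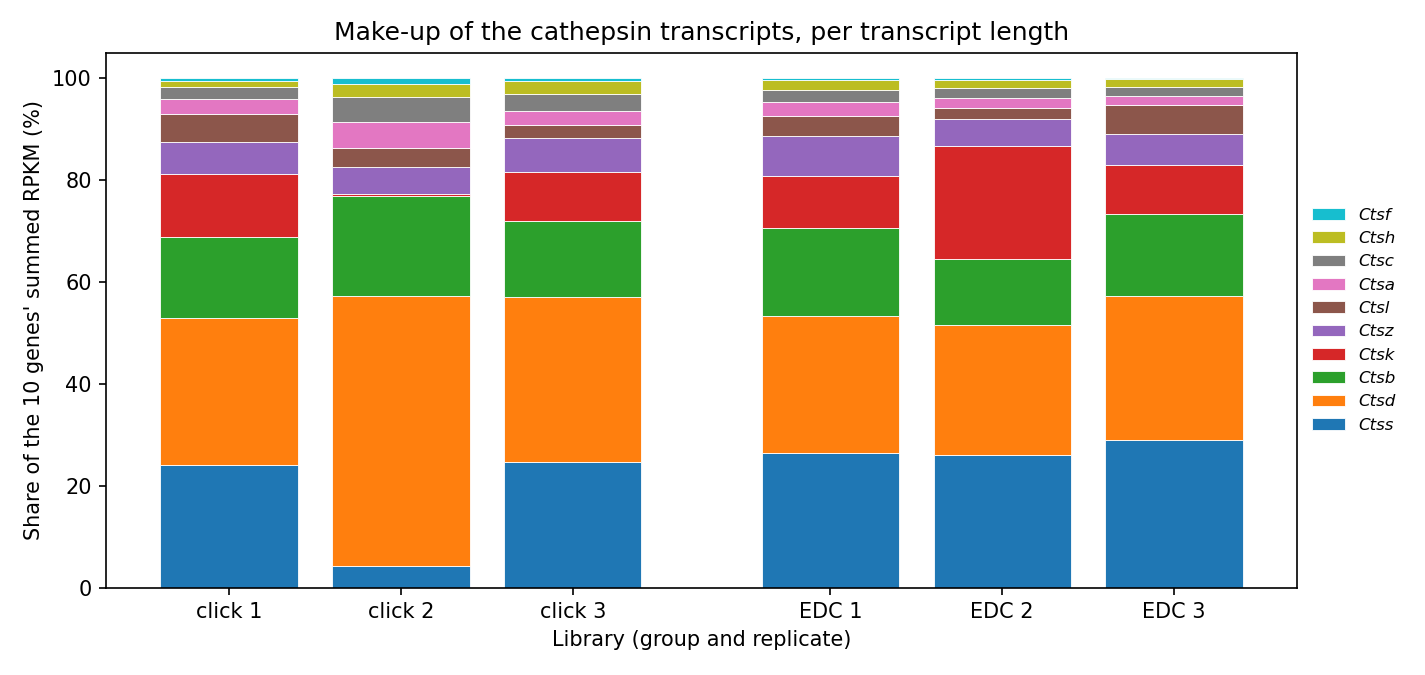
Share of the summed RPKM of the 10 cathepsin genes taken by each gene in each library, in percent, click libraries left of EDC libraries. In click replicate 2 Ctsd fills 52.9% and Ctsk 0.47%, and in EDC replicate 2 Ctsk fills 22.3%.

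Macrophage markers were lower along with the cathepsins. Of 12 markers 11 were lower in click, 8 at an unadjusted edgeR p under 0.05 and 0 after adjustment, with a median log2 fold change of -1.93. Their summed level was 362, 59.8 and 272 CPM in click, against 751, 631 and 1226 CPM in EDC, and no marker was at 0 over the 6 libraries. Cd68, a lysosomal membrane protein of macrophages, had 89.2, 2.04 and 53.5 CPM in click, against 141, 157 and 303 CPM in EDC. The complement genes C1qb and C1qa had log2 fold changes of -1.88 (SE 0.72) and -1.76 (SE 0.55). Reads of mitochondrial genes, at 30.2%, 27.0% and 18.9% in click and 14.8%, 17.9% and 16.8% in EDC, were higher in every click library. The marker sum was lowest in click replicate 2 and highest in EDC replicate 3, as were 8 of the 10 cathepsin genes; Ctsa, Ctsb and Ctsz had its order over all 6 libraries. What part the macrophage content or the mitochondrial share had in the cathepsin levels was not tested.

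Set against that marker sum in each library, the cathepsin genes parted into groups. Ctsa, Ctsc, Ctsd, Ctsf and Ctsz were higher per marker level in every click library than in every EDC library. The marker sum was itself lower in every click library, so a gene that differed less than the markers, or not at all, tends to rise on this scale. The share of all genes that part in this way was not computed, so whether the separation is particular to cathepsins is not known. Ctsd stood at 1.92, 6.62 and 2.37 times the marker sum in click, against 1.32, 1.83 and 1.86 times in EDC. Ctsz stood at 0.282, 0.450 and 0.334 times in click, against 0.263, 0.258 and 0.277 times in EDC, a narrow gap. The other 5 (Ctsb, Ctsh, Ctsk, Ctsl and Ctss) overlapped. Ctss stood at 1.02, 0.345 and 1.15 times in click, against 0.830, 1.19 and 1.22 times in EDC, and Ctsb at 2.35, 5.49 and 2.41 times in click, against 1.90, 2.04 and 2.38 times in EDC. The exact permutation p for each separated ratio was 0.1, the smallest possible here.

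**Figure D4:**
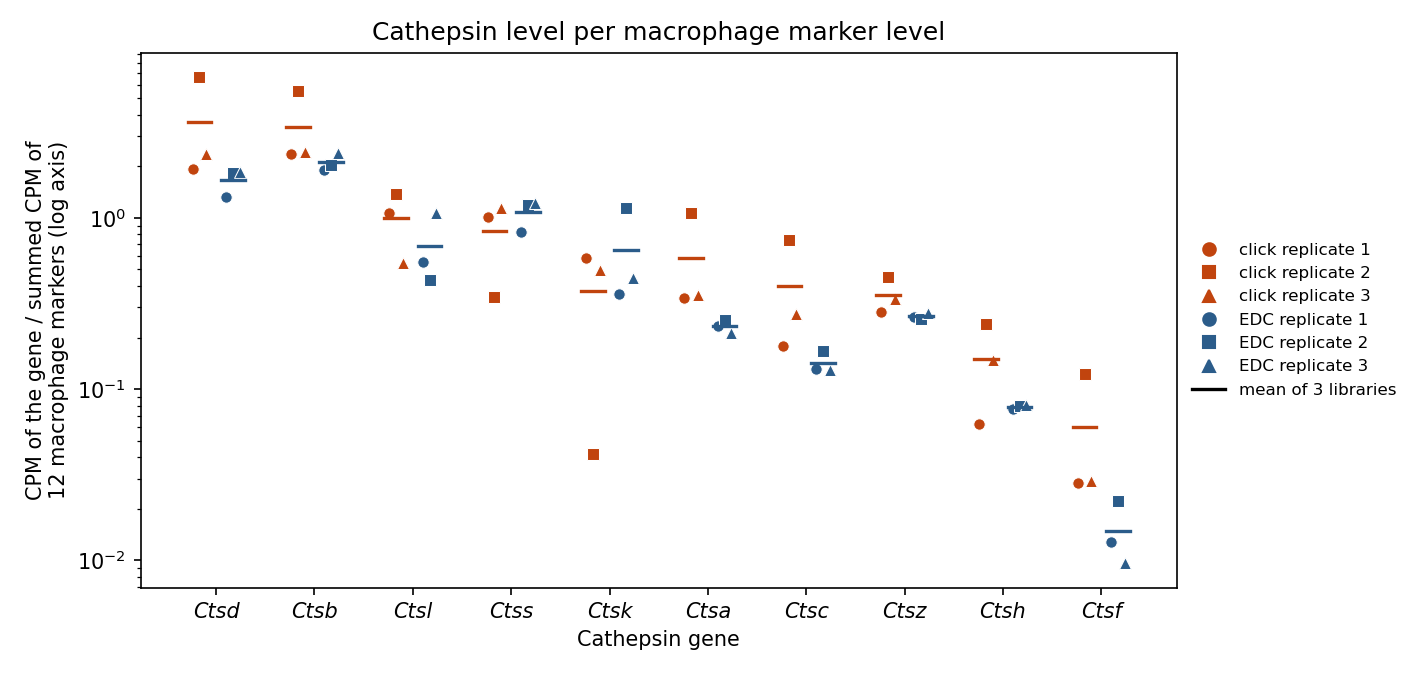
CPM of each cathepsin gene divided by the summed CPM of 12 macrophage markers, per library on a log axis, click left of EDC, with bars at the mean of 3. In click replicate 2 Ctsd stands at 6.62 times the marker sum and Ctsk at 0.0420 times.

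Markers of other cells differed too. Neutrophil markers summed to 6.38 to 14.3 CPM in click, against 16.02 to 179.5 CPM in EDC, where replicates 1 and 3 were high and replicate 2 was low; all 8 were lower, 6 at an unadjusted edgeR p under 0.05. Fibroblast markers summed to 551 to 2695 CPM in click, against 2976 to 4738 CPM in EDC, with 6 of 8 lower and 1 at that level, and hold Col1a1 and Col1a2, which are also among the collagen genes given further on. B cell markers summed to 2.03, 76.9 and 159.9 CPM in click, against 1.17 to 2.24 CPM in EDC, and T cell markers to 6.59, 33.6 and 219 CPM in click, against 7.98 to 17.2 CPM in EDC. Satellite cell and myoblast markers summed to 57.4 to 97.7 CPM in click, against 119 to 319.9 CPM in EDC, with 5 of 6 lower and 2 at that level. Schwann cell markers summed to 83.0 to 226 CPM in click, against 32.9 to 59.6 CPM in EDC, with 5 of 5 higher and 3 at that level. The dendritic cell sum was 10.7 to 72.1 CPM in click, against 87.0 to 209 CPM in EDC, most of it from Itgax, although 4 of the 5 markers tested were higher and 0 reached that level. Monocyte marker sums overlapped, at 44.7 to 403 CPM in click and 324 to 603 CPM in EDC, as did those of adipocytes and mast cells. Endothelial markers were near even, at 194 to 228 CPM in click and 195 to 240 CPM in EDC. Of the 8 muscle fibre markers 7 were higher in click, with a median log2 fold change of 0.55 and 0 at that level, and their sums overlapped. The part of these cell types in the cathepsin results was not tested.

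Of the 15 other genes of the cathepsin family or close to it in name, 3 were expressed enough to be tested, and none passed edgeR's test, adjusted or not. Ctso, a widely expressed papain-type protease, had 16.04, 9.25 and 17.8 CPM in click, against 16.3, 14.2 and 19.3 CPM in EDC (log2 fold change -0.21, SE 0.28). Tinagl1, a secreted protein related to cathepsin B without its protease activity, was at 0.14 (SE 0.20). Ctsw, a protease of cytotoxic lymphocytes, had 0.471, 1.17 and 8.86 CPM in click, against 0.641, 0.692 and 0.856 CPM in EDC, and its high library, click replicate 3, was also the one with most T cell marker reads. The rodent genes Ctsj, Ctsm, Ctsq, Ctsr, Cts3, Cts6, Cts7, Cts8 and Ctsll3, 9 in all and most of them known from placenta, had 0 reads in every library. Ctsg, the neutrophil serine protease cathepsin G, had 0 reads in all 3 click libraries and 25, 0 and 7 reads in EDC.

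Enzymes that work with cathepsins were lower as well, in 8 of 9 genes, with a median log2 fold change of -1.05 and 6 at an unadjusted edgeR p under 0.05. Psap, the precursor of the saposins that help lysosomes degrade lipids, had 796, 506 and 763 CPM in click, against 1347, 1258 and 2907 CPM in EDC (log2 fold change -1.42, SE 0.40). Lgmn, the asparagine-specific protease that trims cathepsin precursors, had 106, 34.7 and 93.6 CPM in click, against 238, 219 and 468 CPM in EDC (-1.98, SE 0.50). Tpp1, a tripeptidyl peptidase, was at -0.61 (SE 0.24). In 7 of the 9 the click libraries lay below all EDC libraries.

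Of the 7 cathepsin inhibitor genes tested, 6 were lower, 1 of these at an unadjusted p under 0.05 by edgeR, and the median log2 fold change was -0.28. That one was Cstb, the cystatin of the cytosol, with 25.8, 5.61 and 19.3 CPM in click, against 50.6, 40.5 and 83.4 CPM in EDC (-1.78, SE 0.56). Cst3, the secreted cystatin C, overlapped, with 260, 154 and 272 CPM in click, against 209, 296 and 255 CPM in EDC (-0.15, SE 0.28). Serpinb6a, an intracellular serpin, was at -0.54 (SE 0.31).

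Genes that sort newly made hydrolases to the lysosome lay close to even (median -0.11); 12 of 13 were lower, 3 at an unadjusted p under 0.05 by edgeR. Igf2r, the large mannose 6-phosphate receptor, had 77.8, 71.2 and 74.9 CPM in click, against 108, 83.0 and 137 CPM in EDC (-0.55, SE 0.22). Scarb2, the receptor that carries glucocerebrosidase, was at -0.18 (SE 0.18) and Vps35, a retromer subunit, at 0.04 (SE 0.18). Of 8 genes in the transcriptional control of lysosomes 4 were lower and 4 higher, 2 and 1 of them at an unadjusted p under 0.05. Tfeb, a master regulator of lysosomal genes, was at 0.42 (SE 0.28), Flcn, which acts on the Rag GTPases, at 0.17 (SE 0.33), and Rragd, a GTPase that recruits it to the lysosome, had 244, 352 and 192 CPM in click, against 124, 176 and 103 CPM in EDC (0.97, SE 0.31). Autophagy genes were split, with 5 of 12 lower and 7 higher, a median of 0.14, and 2 higher at an unadjusted p under 0.05; Sqstm1, an autophagy receptor, was at 0.09 (SE 0.20). Of the genes of LC3, the protein that coats autophagosomes, Map1lc3a was at -0.15 (SE 0.28) and Map1lc3b at 0.50 (SE 0.19), with 96.5, 96.9 and 71.5 CPM in click, against 63.4, 66.7 and 57.9 CPM in EDC.

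Genes of osteoclasts and giant cells, in which cathepsin K is abundant, were lower in 11 of 12 cases (median -1.60), 4 at an unadjusted edgeR p under 0.05, and 8 with every click library below every EDC library. Acp5, the tartrate-resistant acid phosphatase, had 98.6, 2.003 and 112 CPM in click, against 115, 462 and 141 CPM in EDC (-1.76, SE 1.19). Mmp9, a gelatinase, had 64.6, 1.35 and 60.0 CPM in click, against 70.7, 255 and 136 CPM in EDC (-1.87, SE 1.13). Atp6v0d2, a proton pump subunit of osteoclasts and macrophages, had 65.3, 0 and 40.0 CPM in click, against 88.4, 128 and 206 CPM in EDC (-2.003, SE 1.47). As with Ctsk, click replicate 2 was near or at 0 for these 3 genes, and for Acp5 and Mmp9 EDC replicate 2 was the highest library. A low click replicate 2 was not particular to osteoclast and giant cell genes. It was also the lowest library for the macrophage markers Cd68, C1qb and C1qa, at 2.04, 6.56 and 9.58 CPM.

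The MHC class II genes, whose products are loaded after cathepsins S and L have cut the invariant chain, were split, 5 of 8 lower and 3 higher (median -0.07), with 1 of them, higher, at an unadjusted p under 0.05 by edgeR. Cd74, the invariant chain, had 185, 106 and 383 CPM in click, against 270.1, 263 and 202 CPM in EDC (-0.13, SE 0.45). H2-Aa and H2-Ab1 were at -0.19 (SE 0.53) and 0.10 (SE 0.50). The granule proteases that cathepsin C activates were barely read, with a summed level of 3.02 to 6.34 CPM in click and 4.60 to 7.26 CPM in EDC, and the 7 tested had a median of -0.67 with 0 at an unadjusted p under 0.05. The mast cell proteases Mcpt4 and Cma1 were at 0.98 (SE 0.51) and 0.51 (SE 0.66), and Gzmb, the granzyme B gene, at -0.83 (SE 1.07). Fibrillar collagen and elastic fibre genes were lower in 8 of 8, with a median of -1.19 and 1 at that level. Col3a1, the gene of type III collagen, was at -1.05 (SE 0.69), and Col1a2 and Col1a1, the genes of type I collagen, were at -1.34 (SE 0.61) and -1.51 (SE 0.68).

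**Figure D5:**
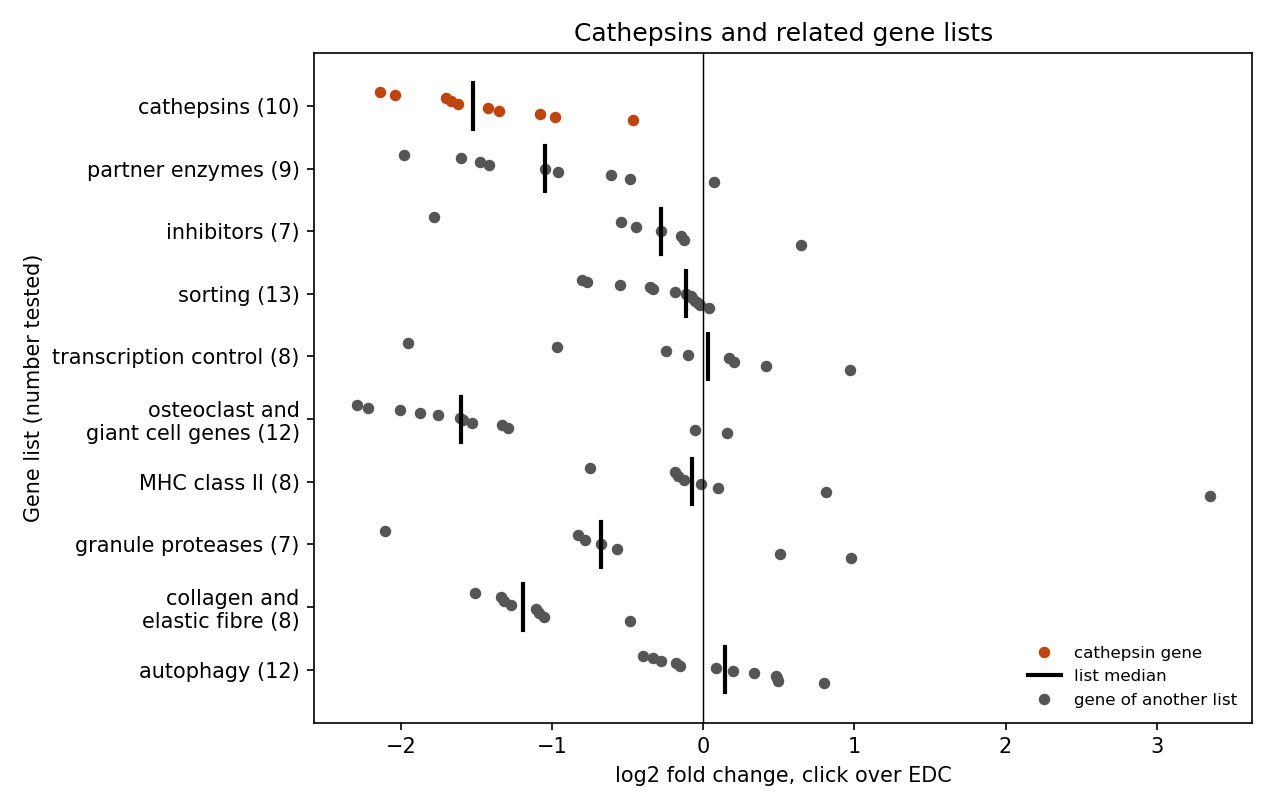
Fitted log2 fold change of the 10 cathepsin genes and of the tested genes of 9 related lists, click over EDC; each point is a gene and each bar a list median. The cathepsin median is -1.52, near that of osteoclast and giant cell genes (-1.60), and inhibitors (-0.28), sorting genes (-0.11) and autophagy genes (0.14) lie near 0.

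The members varied together over the 6 libraries. Pearson's r of log2 CPM between 2 cathepsin genes lay between 0.612 and 0.997, and was above 0.9 in 25 of the 45 pairs. All these values share the same 6 libraries and the low click replicate 2. They span both groups, so the difference between click and EDC also enters every r. The share of all gene pairs above 0.9 was not computed. Ctsa and Ctsb were the most alike (0.997), and Ctsf and Ctsh the least (0.612). Among genes whose mean log2 CPM was 4 or more, those most like Ctsb were Pla2g7, Lamp2 and Sdcbp (0.998 to 0.999), and those most like Ctss were Mpeg1, Pld3 and Cd84 (0.998 to 0.999). Those most like Ctsk were Mmp9, Clec12a and Ckb (0.993 to 0.994). For Ctsz they were Ftl1, Lrp1 and Cstb. An r above 0.95 was reached by 65 of 5209 genes for Ctsk and by 166 for Ctsb. Ctsf had 2 of 5210 above that level, Atp6v1e1 at 0.995 and Slc35e4 at 0.952.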

How the data were processed

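The table holds unnormalised read counts, 1 column per library, as the authors deposited it. Reads were placed on mm10, per the submitters' processing notes, and the sources used here name no aligner, counter, annotation or strand setting. Per the labels' protocols, libraries were made from total RNA with a SMARTER mRNA kit. Lines with no symbol (3225 of 55335, with 0.0631% to 0.0996% of reads) entered neither the fits nor the library sizes. Where a symbol had a second line, as 80 did, both lines stayed in the table and the line with more reads stands for the gene. Replicates are separate mice per the series design; p-values measure the spread between these libraries.

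Counts were tested with the two-sided quasi-likelihood test of edgeR 4.0.16 (R 4.3.3), with TMM factors, the default filter by group, robust dispersion and Benjamini-Hochberg adjustment over 15797 genes at 0.05. The SE is the log2 fold change divided by the square root of F. Scripts were tested on simulated counts. DESeq2 1.42.0 and limma-voom (limma 3.58.1) were alternatives, with 3 other scalings, 2 other filters, each library left out, a replicate block, sex read from the counts, male libraries alone and the mt-Atp6 read class. RPKM and shares used GENCODE M21 transcript lengths; ratios use the same CPM. Log2 CPM for likeness used a prior count of 2. RefSeq sequences are of GRCm38.p6.

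The members, lists and rules were chosen with earlier results of these data known. All members were named, and from each list at most 3 genes, those with the most reads; marker lists other than macrophages are given mainly as sums. Ctsg, the other cathepsins at 0 reads, Tfe3, Tfec and the genes that overlap members, such as Pltp and Fdft1, stand outside that rule. No pair of libraries agreed within sampling noise (variance 67.1 to 514 times that of sampling per gene). Intervals cover the spread between libraries only.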

Additional observations from a re-analysis of the deposited data

How the results depend on the processing

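Each cathepsin gene stayed lower in click in all 17 alternatives run (170 of 170 gene values below 0), and in none but the DESeq2 Wald test did a member pass the adjusted threshold. Genes called over the whole table numbered 1 by edgeR and 606 by the DESeq2 Wald test, which called 5 cathepsin genes, at log2 fold changes of -1.08 to -1.68. The count over the whole table was 0 with limma-voom, with sex as a covariate, in male libraries alone and with the mt-Atp6 read class as a covariate, where 2602, 1906, 1109 and 1676 genes had an unadjusted p under 0.05. With the replicate number as a block it was 0 too (3673 at an unadjusted p), with 0 cathepsin genes (6 at an unadjusted p). Same-numbered libraries had correlations of -0.0472, 0.193 and 0.279 between their deviations, for replicates 1 to 3. The highest correlation of the click library with another number was 0.0876, -0.00148 and 0.0502. Replicate 1 thus correlated better with another number, and replicates 2 and 3 with their own. So few values cannot decide whether the numbers pair the samples. Leaving out each library gave 0 to 7 genes called, 0 cathepsin genes, a cathepsin median of -1.77 to -0.99, the smallest without EDC replicate 3, and 8 to 10 cathepsin genes without overlap, where 14.9% to 24.4% of all genes lay wholly lower in click. Library totals in place of TMM gave a cathepsin median of -2.001, with a median of all genes of -0.45. Shares of the family were also computed without click replicate 2 and with union exon lengths, chosen after seeing the data. Without click replicate 2 the share of Ctsb turned to -0.0862 percentage points, click minus EDC, and that of Ctsz to 0.0631; no share turned with union lengths. With 3 libraries a group, the 95% interval of Ctsk covers a change from -4.98 to 0.70.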
